A study of Mus musculus with 12 samples.

Results

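The miR-99/100 family and the miR-125 family were followed through the small RNA of CCl4-injured mouse livers. The 8 members were the mature forms mmu-miR-99a-5p, mmu-miR-99b-5p, mmu-miR-100-5p, mmu-miR-125a-5p and mmu-miR-125b-5p from the 5p arms, and mmu-miR-125a-3p, mmu-miR-99a-3p and mmu-miR-99b-3p from the 3p arms, named here without the mouse prefix. They were taken by name from the 1929 mature miRNAs of the count table, and all 8 were found there. The mice were C57BL/6 and all received CCl4, a liver toxin that causes fibrosis, by intraperitoneal injection. Of the livers, 6 came from mice that also received Pien Tze Huang (PZH), a remedy of traditional Chinese medicine, daily by the intragastric route, and 6 from mice given double distilled water by the same route. The age and sex of the animals and the dose of PZH are not given in the labels, and no healthy livers were part of the comparison. Samples are called livers here, though the labels do not state them to be separate animals.

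In each hairpin of this family the mature miRNA comes mainly from the 5p arm, and the 3p arm is the passenger strand. A miRNA recognises messages mostly through its seed, bases 2 to 8 from the 5′ end. miR-99a, miR-99b and miR-100 belong to the ancient miR-10 family and are known to repress the growth regulator Mtor. The miR-125 miRNAs are the vertebrate relatives of lin-4, a timing miRNA of the worm, and are known for roles in blood cell formation and inflammatory signalling. The genes lie in conserved clusters in which a miR-99 or miR-100 hairpin, a let-7 hairpin and a miR-125 hairpin stand side by side. In human liver, miR-99a is an abundant miRNA whose level is lower in hepatocellular carcinoma.

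The mature sequences, from RefSeq (GRCm38.p6), are shown because the family is defined by its seeds, given in capitals, and because near-identical members can share sequencing reads. Matches were found for all 8 members. The first set shares the seed ACCCGUA.
miR-99a-5p: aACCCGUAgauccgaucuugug
miR-100-5p: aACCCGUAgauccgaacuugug
miR-99b-5p: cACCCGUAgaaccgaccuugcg

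The second set shares the seed CCCUGAG. It includes miR-351-5p, a relative from chromosome X.
miR-125a-5p: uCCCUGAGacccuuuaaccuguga
miR-125b-5p: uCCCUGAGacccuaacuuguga
miR-351-5p: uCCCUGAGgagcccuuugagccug

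The 3p arms of miR-99a and miR-99b share the seed AAGCUCG, and miR-125a-3p has its own.
miR-99a-3p: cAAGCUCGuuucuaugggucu
miR-99b-3p: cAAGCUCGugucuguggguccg
miR-125a-3p: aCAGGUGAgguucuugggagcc

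Counted from 1 at the 5′ end, miR-99a-5p and miR-100-5p differ at a single base, U16A. From miR-99a-5p to miR-99b-5p there are 4 substitutions, A1C, U11A, U16C and U21C, none of them in the seed. The miR-125b-5p and miR-125a-5p sequences are identical over their first 13 bases and lie 3 edits apart. How reads that match several miRNAs were counted is not given in the sources used here, so the split of counts between miR-99a-5p and miR-100-5p is uncertain, and that between miR-125a-5p and miR-125b-5p to a lesser degree. Of 1647 miRNAs of the table with a sequence, 3 hold the seed ACCCGUA, which are these 3 members. The seed CCCUGAG is held by 5, of which miR-6367 and miR-6394 had at most 12 and 5 counts in any library.

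In GRCm38 the hairpins stand in 3 clusters. On chromosome 17, Mir99b, Mirlet7e and Mir125a lie within 692 bp, from 17830188 to 17830879 on the plus strand inside the protein-coding gene Spaca6. Mir99b (17830188 to 17830257) and Mirlet7e (17830352 to 17830444) are intronic, while Mir125a (17830812 to 17830879) overlaps an annotated exon. On chromosome 16, Mir99a (77598936 to 77599000), Mirlet7c-1 (77599657 to 77599750) and Mir125b-2 (77646273 to 77646343) lie in introns of the non-coding gene Mir99ahg. On chromosome 9, Mir100 (41531425 to 41531504), Mirlet7a-2 (41536716 to 41536811) and Mir125b-1 (41581926 to 41582002) lie in introns of the non-coding genes 3110039I08Rik and Gm49317. Mir125b-1 also overlaps an annotated exon of a further non-coding gene, Gm28119. The mature miR-125b-5p is the same molecule from chromosomes 9 and 16, so its counts join both loci.

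Library totals ranged from 6065480 to 10436478 counts in PZH livers and from 4961913 to 20211784 in water livers. For the labelled tissue 6 hepatocyte miRNAs were read, none of which was at 0 in any library. Their summed level was 206502 to 269599 CPM (counts scaled to a common library size, after TMM correction) in PZH livers and 226453 to 261964 CPM in water livers. The markers of other cell types, given below, were not at 0 in any library either, so this does not identify the tissue. In bulk liver, fewer cells of a type and less RNA per cell cannot be told apart.

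Together the 8 members took 6.75% ± 0.783 of all counts in PZH livers and 6.00% ± 0.435 in water livers (SD, n = 6 each). Most of that was miR-99a-5p, which held 71.4% of the members' counts and ranked 5 by mean level among the 607 miRNAs tested. The order of levels was miR-99a-5p, miR-99b-5p, miR-100-5p, miR-125b-5p, miR-125a-5p, miR-125a-3p, miR-99b-3p and miR-99a-3p. The ranges over libraries of neighbours in this order lay apart, except for miR-99b-5p with miR-100-5p and miR-125a-3p with miR-99b-3p. Within a library miR-99b-5p was above miR-100-5p in 12 of 12. By contrast, miR-125a-3p was above miR-99b-3p in 4 of 6 PZH livers and in 6 of 6 water livers. These are orders of counts, and adapters capture different miRNAs with unequal yield.

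**Figure D1:**
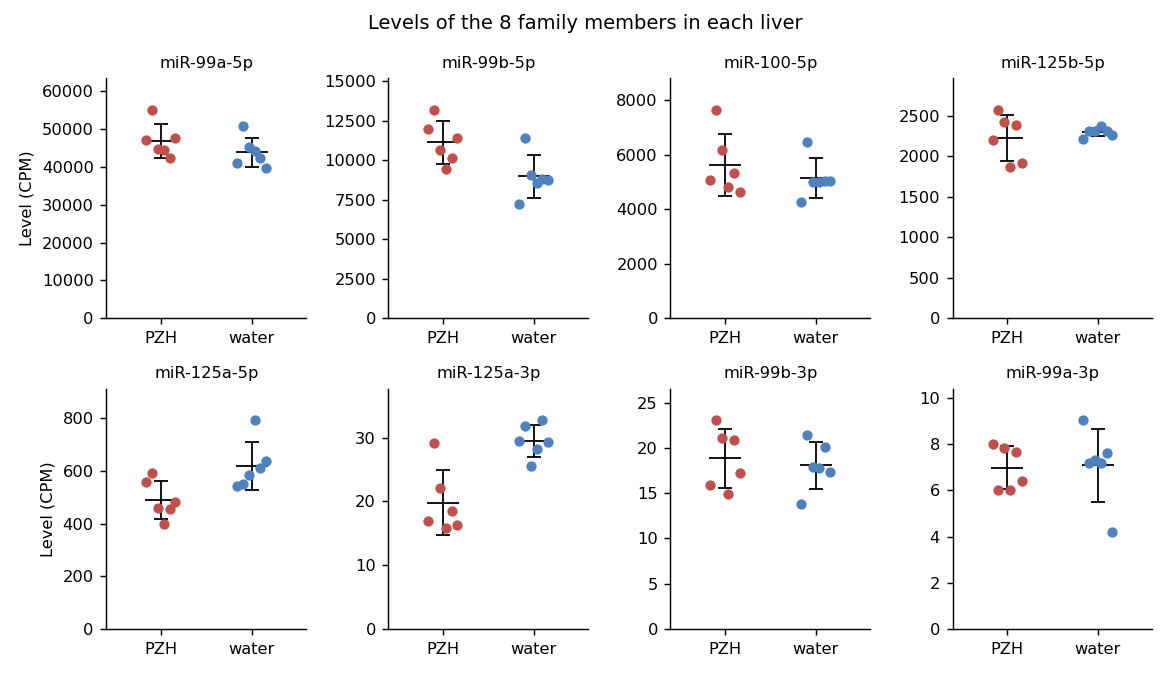
Level of each of the 8 members in CPM after TMM scaling (y axes start at 0), with 1 point per liver and the mean ± SD of 6 livers in black, for PZH (left) and water (right). The PZH points of miR-99b-5p lie mostly above the water points, and those of miR-125a-5p and miR-125a-3p mostly below, with some overlap in each panel.

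The question for each member was whether its level differed between livers of PZH-treated and water-treated mice. With PZH miR-99b-5p was 1.24-fold higher, while both arms of miR-125a were lower, the 5p arm by 20.8% and the 3p arm by 32.8%. The remaining 5 members gave no call. In edgeR's quasi-likelihood test over 607 miRNAs, with calls at a Benjamini-Hochberg adjusted p under 0.05, 1 of 8 members was therefore higher, where 9.88% of all tested miRNAs were. Lower calls came to 2 of 8 members, against 11.4% of all tested miRNAs. In either direction it was 3 of 8 against a background of 21.3%, which at 8 members is no result about the family. The median log2 fold change of the members was 0.01, and that of all tested miRNAs was -0.03. For none of the 8 were the groups free of overlap, which held for 10% of tested miRNAs, with PZH above in 5.11% and below in 4.94%.

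The level of miR-99b-5p, a repressor of Mtor with the miR-99 seed, was lowest at 9424, at the median 11032 and highest at 13209 CPM in PZH livers, against 7240, 8791 and 11421 CPM in water livers. All but 1 water liver, replicate 2, lay below the lowest PZH liver. The means were 11137 ± 1363 CPM in PZH livers and 8988 ± 1358 CPM in water livers (SD, n = 6 each). The log2 fold change was 0.31 (SE 0.10, 95% interval 0.09 to 0.53, edgeR adjusted p = 0.0445). This call was near the threshold. Leaving out a single library ended it in 9 of 12 cases, with log2 fold changes over all 12 omissions between 0.25 and 0.39 (edgeR adjusted p from 0.00533 to 0.102). Only without PZH replicate 4, PZH replicate 5 or water replicate 2 was it kept, and it was kept with the other scalings, filters and tools tried. Its 3p arm, miR-99b-3p, stood at 18.8 ± 3.26 CPM in PZH livers and 18.1 ± 2.59 CPM in water livers (SD, n = 6 each), a log2 fold change of 0.06 with no call.

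The level of miR-125a-5p, the guide strand encoded beside miR-99b, was lowest at 397, at the median 471 and highest at 591 CPM in PZH livers, against 543, 598 and 792 CPM in water livers. Below every water liver were 4 of the 6 PZH livers, while PZH replicates 1 and 2 lay within the water range. The means were 491 ± 72.0 CPM in PZH livers and 619.8 ± 91.9 CPM in water livers (SD, n = 6 each). The log2 fold change was -0.34 (SE 0.11, 95% interval -0.58 to -0.09, edgeR adjusted p = 0.0474). This call was fragile too, since it ended in 15 of 20 alternatives. With 1 library left out the log2 fold change lay between -0.38 and -0.24 (edgeR adjusted p from 0.0320 to 0.174), and the call was kept only without PZH replicate 1 or 2 or water replicate 1 or 2. Of the other settings, limma-voom alone kept it.

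The passenger strand miR-125a-3p was lowest at 15.9, at the median 17.8 and highest at 29.2 CPM in PZH livers, against 25.6, 29.4 and 32.7 CPM in water livers. In 5 of 6 PZH livers it was below every water liver, the exception being PZH replicate 2. The means were 19.8 ± 5.11 CPM in PZH livers and 29.5 ± 2.54 CPM in water livers (SD, n = 6 each). The log2 fold change was -0.57 (SE 0.15, 95% interval -0.89 to -0.25, edgeR adjusted p = 0.0125), and it was called in all 20 alternatives (-0.69 to -0.48, adjusted p from 0.00127 to 0.0497). The counts behind it were 110 to 610 per library.

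Beside these changes, some markers of other cell types were lower with PZH. Of 4 leukocyte miRNAs, 2 were called lower and 0 higher, where 11.4% of all tested miRNAs were called lower. Summed levels of the 4 were 6729 to 10463 CPM in PZH livers and 9515 to 12125 CPM in water livers. Most of that sum was miR-146a-5p (mean 5872 CPM in PZH livers, 8135 CPM in water livers). In the same list miR-150-5p was not lower, with a mean of 162 CPM in PZH livers and 156 CPM in water livers. Both endothelial miRNAs were called lower (10272 to 13900 CPM in PZH livers, 12863 to 17096 CPM in water livers). Of 5 mesenchymal miRNAs, none was called in either direction (52788 to 92619 CPM in PZH livers, 63446 to 92359 CPM in water livers). Most of this sum was miR-143-3p (mean 61879 CPM in PZH livers, 62656 CPM in water livers). Lower calls came to 2 of 5 for the biliary and epithelial list, with summed levels of 864 to 1246 CPM in PZH livers and 931 to 2192 CPM in water livers. The highest of these was water replicate 2, and without it the water livers reached 1151 CPM. For the hepatocyte list 2 of 6 were called lower. Neither of the 2 erythroid miRNAs was called (2429 to 4582 CPM in PZH livers, 2945 to 4743 CPM in water livers). No listed marker was at 0 in any library, and the part of these cell types in the levels of miR-99b and miR-125a was not tested.

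The most abundant member, miR-99a-5p, was lowest at 42335, at the median 46020 and highest at 55180 CPM in PZH livers, against 39804, 43240.1 and 50778 CPM in water livers. The ranges overlapped widely. Its log2 fold change was 0.10 (SE 0.08, 95% interval -0.07 to 0.26, edgeR adjusted p = 0.449), so larger rises than 0.26 lay outside the interval. Its passenger miR-99a-3p, at 6.99 ± 0.938 CPM in PZH livers and 7.09 ± 1.58 CPM in water livers (SD, n = 6 each), rested on 21 to 138 counts per library. Its log2 fold change of -0.04 turned positive, without a call, under RLE and total-count scaling.

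For miR-100-5p, the near twin of miR-99a-5p on chromosome 9, the lowest, median and highest levels were 4627, 5191 and 7658 CPM in PZH livers, against 4258, 5022 and 6488 CPM in water livers. The groups overlapped, with PZH replicate 2 and water replicate 2 the highest of their groups. The log2 fold change was 0.13 (SE 0.12, 95% interval -0.14 to 0.39, edgeR adjusted p = 0.558). Its passenger miR-100-3p had only 0 to 16 counts per library and did not pass the filter on low counts, and a count of 0 allows up to 3.

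The level of miR-125b-5p gave no call but was more widely spread with PZH. It was lowest at 1867, at the median 2297 and highest at 2575 CPM in PZH livers, against 2216, 2311 and 2376 CPM in water livers. Of the PZH livers, 3 lay above and 3 below the whole water range. The coefficient of variation over libraries was 12.9% in PZH livers and 2.38% in water livers, a difference in spread that was not tested. A wider spread with PZH was not particular to miR-125b-5p. It was seen in every listed hepatocyte and mesenchymal miRNA, such as miR-194-5p (11.2% in PZH livers, 3.34% in water livers) and miR-199a-5p (23.3% and 5.51%). The biliary and epithelial miRNAs went the other way, such as miR-200c-3p (23.1% in PZH livers, 64.6% in water livers). The log2 fold change was -0.05 (SE 0.08, 95% interval -0.22 to 0.13, edgeR adjusted p = 0.817), and it was slightly positive with total-count scaling and with a filter of 10 CPM. The passenger from chromosome 9, miR-125b-1-3p, had a coefficient of variation of 25.0% in PZH livers and 8.54% in water livers. For miR-125b-2-3p of chromosome 16 it was 11.5% in PZH livers and 7.89% in water livers. Neither passenger was called, at log2 fold changes of -0.09 and -0.02, of which the value of miR-125b-2-3p turned positive with RLE and total-count scaling.

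**Figure D2:**
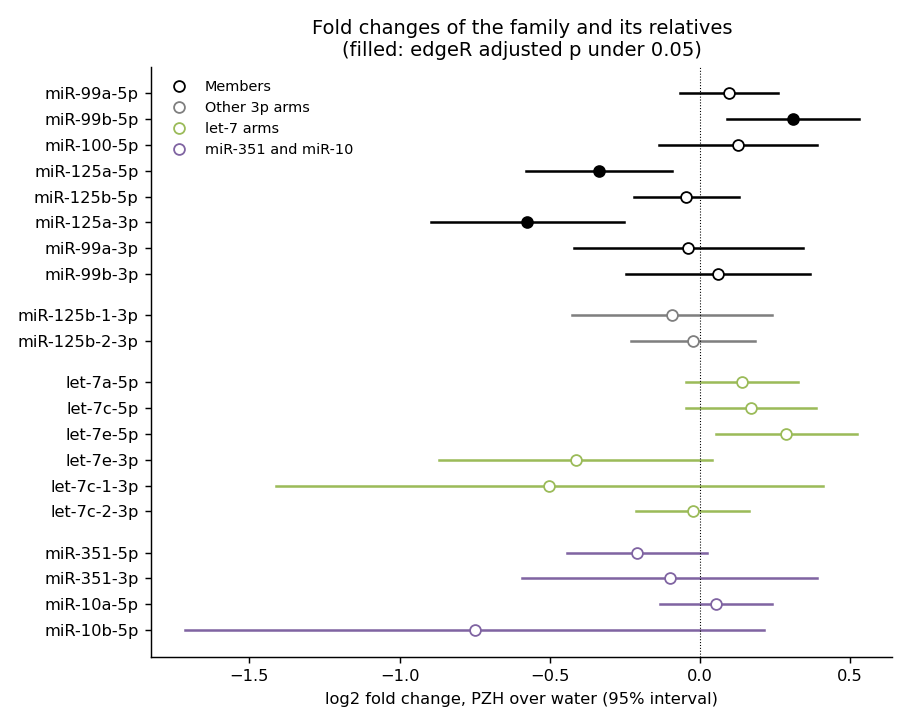
Log2 fold change of PZH over water with its 95% interval from edgeR (x axis), for the members, the other 3p arms of their hairpins, 6 let-7 arms (5 from the same clusters, and let-7c-2-3p from another locus), and miR-351 and miR-10. Filled points passed an adjusted p of 0.05, which were miR-99b-5p at 0.31, miR-125a-5p at -0.34 and miR-125a-3p at -0.57.

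Because near-identical members may share reads, the counts of the 5p members with the same seed were also summed. The summed miR-99a-5p, miR-99b-5p and miR-100-5p stood at 64740 ± 6717 CPM in PZH livers and 57071 ± 5586 CPM in water livers (SD, n = 6 each), a log2 fold change of 0.18 (95% interval 0.01 to 0.35, edgeR adjusted p = 0.126). The summed miR-125a-5p and miR-125b-5p stood at 2762 ± 322 CPM in PZH livers and 2871 ± 137 CPM in water livers (SD, n = 6 each), a log2 fold change of -0.06 (95% interval -0.23 to 0.11, edgeR adjusted p = 0.729). Neither sum passed the test. Most of the first sum was miR-99a-5p (mean 46935 CPM in PZH livers, 43895 CPM in water livers, when scaled as a single row). Most of the second was miR-125b-5p (2228 CPM in PZH livers, 2298 CPM in water livers). Neither was called by itself, so the sums say little about miR-99b-5p or miR-125a-5p alone. The sums hold members only, without miR-351-5p.

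Ratios of 2 miRNAs within a library are free of library scaling, so they show whether members kept their proportions. Of 8 such ratios, 4 differed between PZH and water in two-sided exact permutation tests over all assignments of the 12 libraries, adjusted over the 8. All 4 hold miR-99b-5p or miR-125a-5p, the 5p members called above, and the ratios were chosen with earlier results of these data known. They are therefore no separate support for those calls. The clearest of the 4 ratios was that of miR-99b-5p to miR-125a-5p, whose hairpins share the cluster on chromosome 17. It was lowest at 21.4, at the median 22.7 and highest at 23.7 in PZH livers, against 10.8, 14.1 and 20.8 in water livers. Every PZH liver was above every water liver, and the PZH values lay close together. The mean log2 ratio was 4.51 ± 0.06 in PZH livers and 3.86 ± 0.31 in water livers (SD, n = 6 each), a difference of 0.65 or 1.57-fold (exact permutation p = 0.00216, the smallest possible here, adjusted p = 0.0173). With any 1 library left out the difference was 0.57 to 0.76 and the call was kept. This ratio sets the 5p member called higher (log2 fold change 0.31) over the 5p member called lower (-0.34), so its difference joins those changes.

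The 3p arms of the same hairpins gave a like difference, in a ratio chosen after the values were seen. The ratio of miR-99b-3p to miR-125a-3p was lowest at 0.791, at the median 0.947 and highest at 1.12 in PZH livers, against 0.470, 0.623 and 0.701 in water livers. Again 6 of 6 PZH livers were above every water liver. The difference of log2 ratios was 0.66, or 1.58-fold (exact permutation p = 0.00216, adjusted p = 0.0119 over 11 ratios). The 5p ratio and the 3p ratio rest on different molecules, with different sequences, from the same hairpins. As the 3p ratio was picked from these same values, it is no separate support for the 5p ratio. It goes mostly with the fall of miR-125a-3p (log2 fold change -0.57), since that of miR-99b-3p was 0.06.

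The middle hairpin of the cluster encodes let-7e, a member of the growth-restraining let-7 family. Its guide let-7e-5p stood at 538 ± 48.3 CPM in PZH livers and 441 ± 69.3 CPM in water livers (SD, n = 6 each), with a log2 fold change of 0.29 and no call (edgeR adjusted p = 0.0777, and from 0.0226 to 0.150 over the alternatives, of which 6 of 20 called it). The ratio of let-7e-5p to miR-125a-5p was lowest at 0.816, at the median 1.13 and highest at 1.47 in PZH livers, against 0.518, 0.769 and 0.866 in water livers. All but 1 PZH liver, replicate 1, were above every water liver, and the difference was 0.64 on the log2 scale (exact permutation p = 0.00649, adjusted p = 0.0173). The ratio of let-7e-5p to miR-99b-5p, also chosen after the values were seen, differed by -0.01 (exact permutation p = 0.926). The passenger let-7e-3p did not go with its guide. It stood at 8.96 ± 2.98 CPM in PZH livers and 11.96 ± 2.47 CPM in water livers (SD, n = 6 each), without a call, and its ratio to miR-125a-3p differed by 0.15 (exact permutation p = 0.372).

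**Figure D3:**
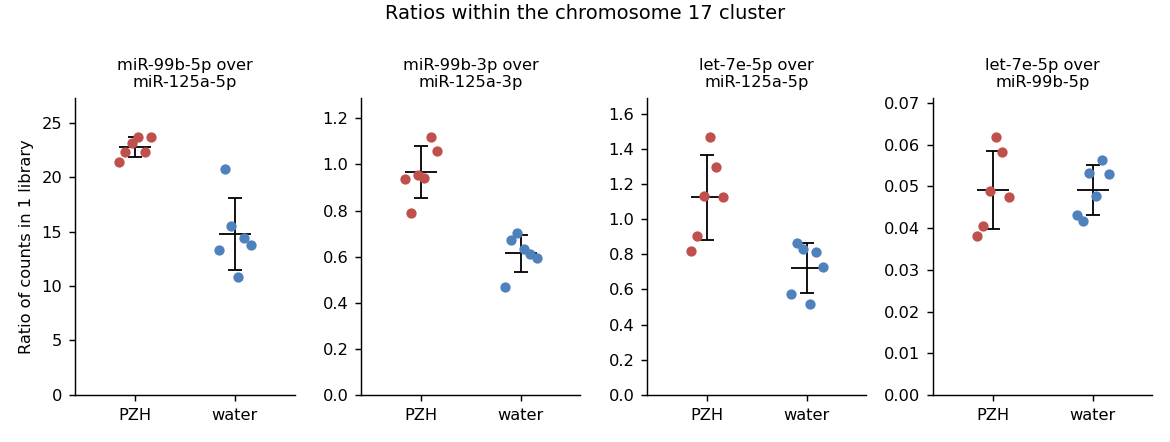
Ratio of the counts of 2 miRNAs of the chromosome 17 cluster in each library (y axes start at 0), with 1 point per liver and the mean ± SD of 6 livers in black, for PZH (left) and water (right). For miR-99b over miR-125a the PZH points lie wholly above the water points in both the 5p arms (21.4 to 23.7 against 10.8 to 20.8) and the 3p arms (0.791 to 1.12 against 0.470 to 0.701), and for let-7e-5p over miR-99b-5p the groups lie together. The ratio of the 3p arms and that of let-7e-5p to miR-99b-5p were chosen after the values were seen.

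Between clusters, the ratio of miR-99b-5p to its paralog miR-99a-5p was 0.212 at the lowest, 0.239 at the median and 0.254 at the highest in PZH livers, against 0.177, 0.204 and 0.225 in water livers. In 5 of 6 PZH livers it was above every water liver, the exception being PZH replicate 4. The difference was 0.22 on the log2 scale (exact permutation p = 0.00649, adjusted p = 0.0173). The ratio of miR-125a-5p to miR-125b-5p was 0.190 at the lowest, 0.221 at the median and 0.254 at the highest in PZH livers, against 0.238, 0.258 and 0.333 in water livers. It differed by -0.28 (exact permutation p = 0.0216, adjusted p = 0.0433), but leaving out a single library ended this call in 9 of 12 cases (-0.32 to -0.22 over all omissions, adjusted p from 0.0303 to 0.0996). It was kept only without PZH replicate 1, PZH replicate 6 or water replicate 2.

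The clusters on chromosomes 16 and 9 gave no such call. The ratio of miR-99a-5p to miR-125b-5p had a geometric mean of 21.1 in PZH livers and 19.0 in water livers, a log2 difference of 0.15 (exact permutation p = 0.141, adjusted p = 0.188). That of miR-100-5p to miR-125b-5p was 2.50 in PZH livers and 2.22 in water livers, a difference of 0.17 (exact permutation p = 0.110, adjusted p = 0.177). Without water replicate 2 the difference of this ratio was 0.24 and passed the threshold (adjusted p = 0.0173). Since miR-125b-5p joins both loci, neither ratio is a measure of 1 cluster. The ratio of let-7c-5p to miR-99a-5p differed by 0.08 (exact permutation p = 0.541) and that of miR-100-5p to miR-99a-5p by 0.02 (exact permutation p = 0.846). The difference between the chromosome 17 cluster and the others was itself not tested.

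Arm balance was read as the ratio of 5p to 3p counts. It was tested with limma over 137 hairpins that had a mean of at least 20 counts in both arms. Of these, 9.49% were called, and none of the 3 member hairpins was. The miR-99a hairpin was the most lopsided, with geometric means of 6632 5p counts per 3p count in PZH livers and 6216 in water livers (log2 difference 0.09, 95% interval -0.32 to 0.50, limma adjusted p = 0.821). For miR-99b it was 591 in PZH livers and 495 in water livers (log2 difference 0.26, 95% interval -0.01 to 0.53, limma adjusted p = 0.206). For miR-125a it was 25.0 in PZH livers and 20.8 in water livers (log2 difference 0.26, 95% interval -0.06 to 0.59, limma adjusted p = 0.268). The 2 arms of miR-125a were thus not shown to differ in the size of their fall. In the same cluster let-7e was called, with 61.8 in PZH livers and 36.7 in water livers (log2 difference 0.75, limma adjusted p = 0.0346). Leaving out a single library ended that call in 7 of 12 cases, those of PZH replicates 1, 5 and 6 and water replicates 1, 3, 4 and 5 (0.65 to 0.89 over all omissions, limma adjusted p from 0.00950 to 0.0751).

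**Figure D4:**
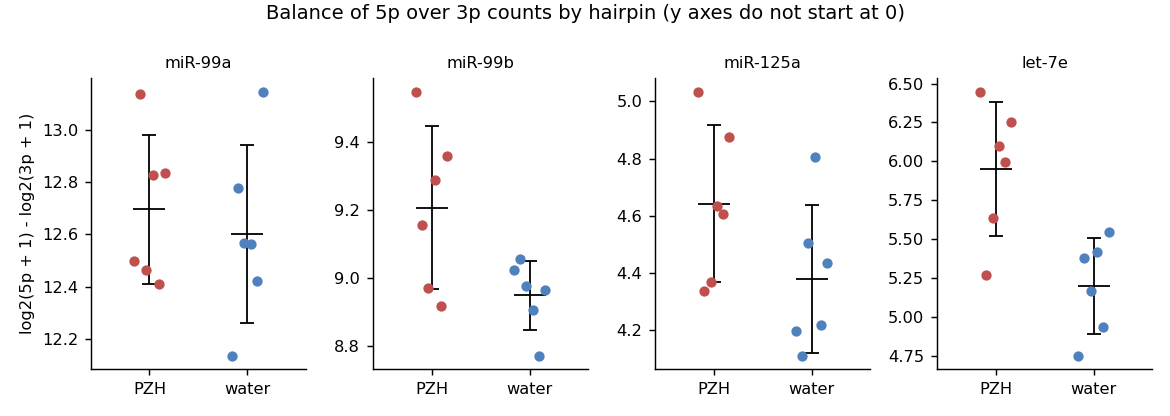
Log2 ratio of 5p to 3p counts, with 1 added to each count (y axes do not start at 0), in each liver for the hairpins miR-99a, miR-99b, miR-125a and let-7e, with the mean ± SD of 6 livers in black, for PZH (left) and water (right). The groups overlap for all 4 hairpins, and let-7e alone passed the limma test, at a difference of 0.75.

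Relatives by seed or sequence gave no call. With the miR-125 seed, miR-351-5p stood at 84.7 ± 10.9 CPM in PZH livers and 97.9 ± 11.3 CPM in water livers (SD, n = 6 each; log2 fold change -0.21, edgeR adjusted p = 0.200). The related miR-10a-5p, from a Hox gene cluster, stood at 11503 ± 1416 CPM in PZH livers and 11091 ± 1028 CPM in water livers (SD, n = 6 each; log2 fold change 0.05). The level of miR-10b-5p ranged from 42.0 to 495 CPM in PZH livers and from 237 to 494.6 CPM in water livers, with PZH replicates 2 and 6 lowest (log2 fold change -0.75, edgeR adjusted p = 0.283). Of the let-7 arms encoded in the clusters, 5 were tested and 0 were called in the main edgeR fit, 1 of them at an unadjusted p under 0.05. For let-7e-5p, 5 of 8 other settings gave a call. These included edgeR with RLE scaling (adjusted p = 0.0490) or total-count scaling (adjusted p = 0.0450), and DESeq2 (adjusted p = 0.0320). With 1 library left out, let-7e-5p was called in 1 of 12 cases. Among the let-7 arms, let-7a-5p (0.14) and let-7c-5p (0.17) are each also made from a locus outside these clusters, and their counts join those loci.

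Several members, though not miR-99a-3p and less so miR-125a-5p, were high or low in the same livers. Within its group, PZH replicate 2 was the highest for 7 of the 8 members, and PZH replicate 4 the lowest for 5. The eighth, miR-99a-3p, was at its lowest in PZH replicate 2 and at its highest among water livers in replicate 1, and its group-centred levels had Pearson r of -0.17 to 0.17 with the other members over 12 libraries, given as a description. The counts of miR-99a-3p were low, at 21 to 138 per library. For miR-125a-5p, r was 0.25 to 0.49 with the members other than miR-99a-3p. For miR-125b-5p, r was also low with miR-99a-5p (0.29) and miR-99b-5p (0.37), but 0.72 with miR-100-5p and 0.77 with miR-125a-3p. Among water livers, replicate 2 was the highest for 4 members and replicate 1 the lowest for 5. There miR-125b-5p and miR-125a-5p were highest in replicate 4 and miR-125a-3p in replicate 5. How many of all miRNAs share these extremes was not worked out. After centring on group means over the 12 libraries, the miRNA most like miR-99b-5p among 173 candidates with at least 100 CPM was miR-99a-5p (Pearson r = 0.85), followed by miR-1839-5p (r = 0.80). The pattern of miR-99a-5p was most like those of miR-30e-3p (r = 0.89) and miR-30a-3p (r = 0.85). For miR-100-5p they were miR-145a-3p (r = 0.90) and let-7i-5p (r = 0.87), for miR-125b-5p miR-652-3p (r = 0.81) and miR-342-3p (r = 0.80), and for miR-125a-5p miR-501-3p (r = 0.77) and miR-151-3p (r = 0.65). These are the highest of many values, share their libraries and scaling, and are given as a description without a test.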

How the data were processed

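Small RNA of 12 livers was sequenced, 1 library per liver sample, after Trizol extraction and TruSeq library preparation, per the labels. The deposited table holds raw counts per mature miRNA made by the authors, without normalization. Per the submitters' processing notes, cutadapt, FastQC, BWA, DESeq2 and GRCm38 were used. Not given in the sources used here are versions, the counter, the annotation release and the use of strand. No cell of the table holds 1, so the lowest count above 0 is 2.

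Counts were compared with the edgeR 4.0.16 quasi-likelihood test in R 4.3.3, after filterByExpr had kept 607 miRNAs and with library sizes corrected by TMM, and arm ratios with limma 3.58.1 (pseudocount 1). SEs were derived from the test statistic. Ratios of 2 miRNAs used exact permutation tests. The tests weigh the group difference against the spread between these samples, which the labels do not state to be separate animals. The edgeR and limma intervals given here take in that spread too. In simulated data edgeR recovered 20.4% of 49 changes of 1.25-fold and 67.3% of 49 of 1.5-fold, so changes of the size seen here can be missed.

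The alternatives tried were other scalings (RLE, TMMwsp, total counts), all miRNAs unfiltered or only those with 10 CPM in 6 livers, other tools (DESeq2 1.42.0 and limma-voom), a replicate block, summed family rows, other pseudocounts and the omission of each library. The labels number the samples of each group from 1 to 6 without saying whether equal numbers belong together. The members, the lists and the tests were chosen with earlier results of these data known. The named miRNAs were the members, their other arms, let-7 arms of the clusters and their paralogs, relatives by sequence and, for each 5p member, the 2 miRNAs most alike by correlation. The name let-7a-1-3p was not analysed here.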

Additional observations from a re-analysis of the deposited data

Results flagged for a closer look

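In 5 of 70 groups of 6 livers checked, 1 liver lay far from the rest by Dixon's criterion, which chance alone meets in about 1 of 20 groups. The level of miR-100-5p in water replicate 2 was 6488 CPM, and the next water liver had 5036 CPM. The level of miR-125b-2-3p in PZH replicate 1 was 120.7 CPM, and the next PZH liver had 151 CPM. That of miR-351-5p in PZH replicate 1 was 105 CPM, and the next PZH liver had 84.9 CPM. The log2 ratio of miR-99b-5p to miR-99a-5p was -2.24 in PZH replicate 4 and -2.07 in the next PZH liver. The log2 ratio of let-7e-3p to miR-125a-3p was -1.71 in PZH replicate 1 and -1.20 in the next PZH liver.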

How the results depend on the processing

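The number of members called was 3, between 1 and 3 with 1 library left out, and 2 or 3 under each other setting. That of all miRNAs called was 129, and between 99 and 139 with 1 library left out. Sign changes touched uncalled values only. With RLE scaling the log2 fold changes of miR-99a-3p, miR-125b-2-3p and let-7c-2-3p were 0.00073, 0.0116 and 0.0120. With total-count scaling those of miR-125b-5p, miR-99a-3p, miR-125b-2-3p and let-7c-2-3p were 0.00605, 0.0119, 0.0198 and 0.0195. Without a filter miR-125b-2-3p and let-7c-2-3p stood at 0.0135 and 0.00597, with DESeq2 at 0.0131 and 0.0118, and with the filter of 10 CPM at 0.0639 and 0.0642, where miR-125b-5p stood at 0.0456. With 1 library left out the log2 fold change ranged from -0.0553 to 0.0378 for miR-125b-2-3p, from -0.0654 to 0.0213 for let-7c-2-3p, from -0.14 to 0.0398 for miR-99a-3p, from -0.0153 to 0.11 for miR-99b-3p, from -0.18 to 0.0269 for miR-351-3p and from -0.00256 to 0.11 for miR-10a-5p, and the log2 ratio difference of miR-100-5p to miR-99a-5p from -0.0274 to 0.0751.

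The number of ratios called was 4, and 3 to 5 with 1 library left out. With a replicate block it was 0, since sign flips of 6 pairs cannot give a p below 0.0312, which is 0.0625 after adjustment for the ratio of miR-99b-5p to miR-125a-5p. With the block edgeR called 114 miRNAs and 2 members, without miR-125a-5p. Same-numbered libraries correlated at -0.15 to 0.08 after centring. These low values show no pairing by number, but they cannot exclude it. The number of arm ratios called was 13, or 20 with a minimum of 100 counts, and 3 to 16 with 1 library left out. The cause of these changes was not tested. Low counts limit miR-99a-3p, miR-99b-3p and miR-125a-3p. Members could not be counted where family rows were summed, and miR-99a-3p, let-7c-1-3p and miR-351-3p gave no value with the 10 CPM filter.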
